A study of Mus musculus with 8 samples.

Results

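The genes described are 10 members of the AP-1 and BATF group of basic leucine zipper transcription factors, picked out of the tables by gene symbol: Fos, Fosb, Fosl2, Jun, Junb, Jund, Batf, Batf3, Atf3 and Jdp2. All 10 were found among the 53242 genes of the count and TPM tables, and 9 of them were among the 14218 genes abundant enough to be tested. In 4A1 KO B cells the RNA of Jdp2 was at 0.245 of the control level, Batf RNA at 0.533 and Jund RNA at 0.702, whereas Atf3 RNA was at 1.58 times the control level. Jdp2 passed the test and its fold change threshold in all 15 alternative settings for counts and Batf in 14. Jund and Atf3 were less stable, each failing in 6 of the 15. Fos, Fosb, Fosl2, Jun and Junb did not pass the test and its fold change threshold together, and Batf3 was hardly detected.

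RNA was sequenced from splenic B cells of C57BL/6 mice aged 8 to 12 weeks. Control mice were Eif4a1+/+ CD23-cre and 4A1 KO mice were Eif4a1 fl/fl CD23-cre, so the Cre transgene, which deletes floxed DNA from the immature B cell stage in the spleen onwards, was carried by both groups. All cells had been activated for 24 h with 40 ng/ml IL4 on irradiated CD40LB cells, a fibroblast feeder line that expresses CD40 ligand and BAFF, and no resting or unstimulated cells were compared. There were 4 libraries per genotype: replicate 1 was a male and replicate 2 a female of batch A, and replicates 3 and 4 were a male and a female of batch B. Replicate 1 of both genotypes was taken out by the study for reduced viability. The edgeR and limma fits of the genotype effect were therefore run on replicates 2 to 4, with all 8 libraries as an alternative. The exact permutation tests and the comparisons between sexes and between batches used all 8 libraries, replicate 1 included.

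Libraries held 31727557 to 43210858 counted reads. Eif4a1, the targeted gene, measured 748 to 940 CPM (read counts scaled to the size of the library) in control and 556 to 689 CPM in 4A1 KO libraries, a log2 fold change of -0.44 (SE 0.05, adjusted p = 1.15e-04, edgeR). The B cell markers Ms4a1, Pax5, Cd22 and others were abundant, with 8 markers summing to 6745 to 7897 CPM in control and 7179 to 7621 CPM in 4A1 KO libraries. Fcer2a was the largest part of this sum, at 3829 CPM on average. Single markers differed, 3 of the 8, Cd22 among them, being significantly lower in 4A1 KO cells and 0 higher. Markers of other cells were low. The sum of 14 feeder fibroblast markers was 22.03, 59.4, 12.8 and 13.1 CPM in control replicates 1 to 4 and 34.4, 23.7, 19.8 and 20.01 CPM in 4A1 KO replicates 1 to 4, with Lum and Postn at 0 in every library. Because these are bulk samples, fewer cells of a type and less RNA per cell cannot be told apart.

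AP-1 is a family of dimers that bind DNA through a basic region and pair through a leucine zipper. JUN proteins pair with each other or with FOS proteins, whereas FOS proteins need a JUN partner. BATF and BATF3 lack the activation domains of FOS, pair with JUN proteins and bind composite sites together with IRF4 or IRF8. In B cells BATF is required for class switching. JDP2 and ATF3 also pair with JUN proteins and can repress AP-1 sites. Several of these genes are immediate early genes, transcribed within minutes of receptor or stress signals that reach them through MAP kinases.

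The promoters of the genes that differed between genotypes, with those of Jun and Junb, which belong to the same family as Jund, are shown to let their sequences be compared. Each run holds the 150 bases before the canonical transcription start, 5′ to 3′ on the strand of the gene, from the GRCm39 genome with GENCODE M39 starts. Capitals mark TGACG, the core of a cyclic AMP response element, on either strand (CGTCA where it lies on the other strand), and in Jun the TGACATCA site.
Jdp2, chr12:85645945-85646094, plus strand: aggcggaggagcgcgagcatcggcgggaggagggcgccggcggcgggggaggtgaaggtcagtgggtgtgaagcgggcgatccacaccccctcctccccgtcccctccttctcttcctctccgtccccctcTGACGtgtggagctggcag
Batf, chr12:85733273-85733422, plus strand: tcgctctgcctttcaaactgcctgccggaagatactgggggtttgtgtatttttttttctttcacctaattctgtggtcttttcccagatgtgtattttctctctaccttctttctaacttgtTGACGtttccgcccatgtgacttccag
Jund, chr8:71151449-71151598, plus strand: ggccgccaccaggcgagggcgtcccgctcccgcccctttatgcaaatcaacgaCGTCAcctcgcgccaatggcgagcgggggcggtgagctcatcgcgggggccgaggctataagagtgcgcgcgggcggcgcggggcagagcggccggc
Junb, chr8:85705348-85705497, minus strand: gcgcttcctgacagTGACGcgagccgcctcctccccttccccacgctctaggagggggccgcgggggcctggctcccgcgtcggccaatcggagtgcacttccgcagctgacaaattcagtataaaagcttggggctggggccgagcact
Jun, chr4:94940460-94940609, minus strand: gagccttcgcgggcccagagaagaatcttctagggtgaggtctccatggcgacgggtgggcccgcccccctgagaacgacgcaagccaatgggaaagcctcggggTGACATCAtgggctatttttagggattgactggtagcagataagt
Atf3, chr1:190915538-190915687, minus strand: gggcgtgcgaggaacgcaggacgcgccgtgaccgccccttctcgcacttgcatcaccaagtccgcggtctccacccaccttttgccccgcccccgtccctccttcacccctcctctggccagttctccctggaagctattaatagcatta

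Over the 250 bases before the start, TGACG was found in 6 members: Fos, Fosb, Junb, Jund, Batf and Jdp2. Of the 21770 promoters of protein-coding genes of the same length, 18.03% held it on either strand. In Jdp2 it lay at -19 to -15 and in Batf at -27 to -23 from the start. Jund also held the full element TGACGTCA at -214 to -207, outside the bases shown, which holds 2 of its 3 TGACG matches and which 1.695% of promoters held. The TGACATCA of Jun, at -45 to -38, was found in 2.609% of promoters. TGACTCA, the classical AP-1 site, was in 4.024% of promoters and in 0 members. CCAAT was present in the 3 JUN genes, each with 1 exon in its canonical transcript, against 36.5% of all promoters. An NF-kB site was found in Fos, Fosb and Batf against 6.238% of promoters. The CArG box of serum response factor, in 1.396% of promoters, had 0 matches in the members, as had the palindromic STAT site, found in 5.893%. CACGTG, held by 6.261% of promoters, occurred in Batf3, and GGGCGG, held by 36.32%, in 9 members. These matches are descriptions of letters in this window. The gene models of Atf3, Jdp2, Batf3 and Junb begin upstream of the canonical start used here, and promoters of other starts were not searched.

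Levels per transcript length differed widely among the members. TPM, in which read counts are scaled to both transcript length and library size, allows genes to be compared. In control cells Jund was highest at 391 ± 39.7 TPM (SD, n = 4), followed by Batf at 191 ± 77.8 TPM and Junb at 182 ± 35.2 TPM. The ranges of Batf and Junb overlapped, whereas that of Jund lay above both. Jun followed at 44.0 ± 24.6 TPM. Atf3, Fos and Fosb were at 7.29 ± 3.31, 6.98 ± 2.70 and 6.08 ± 1.23 TPM with overlapping ranges. Jdp2 was at 3.02 ± 0.632 TPM. Fosl2 at 0.514 ± 0.130 TPM and Batf3 at 0.433 ± 0.474 TPM overlapped each other. Thus JUN genes and Batf made up most of the RNA of the group, and FOS genes were a minor part. In 4A1 KO cells Jund was at 275 ± 21.0 TPM, Junb at 216 ± 39.5 TPM and Batf at 102 ± 37.5 TPM. There the ranges of Jund and Junb overlapped and those of Junb and Batf did not. Jdp2 at 0.718 ± 0.290 TPM overlapped Fosl2, which it did not in control cells.

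**Figure D1:**
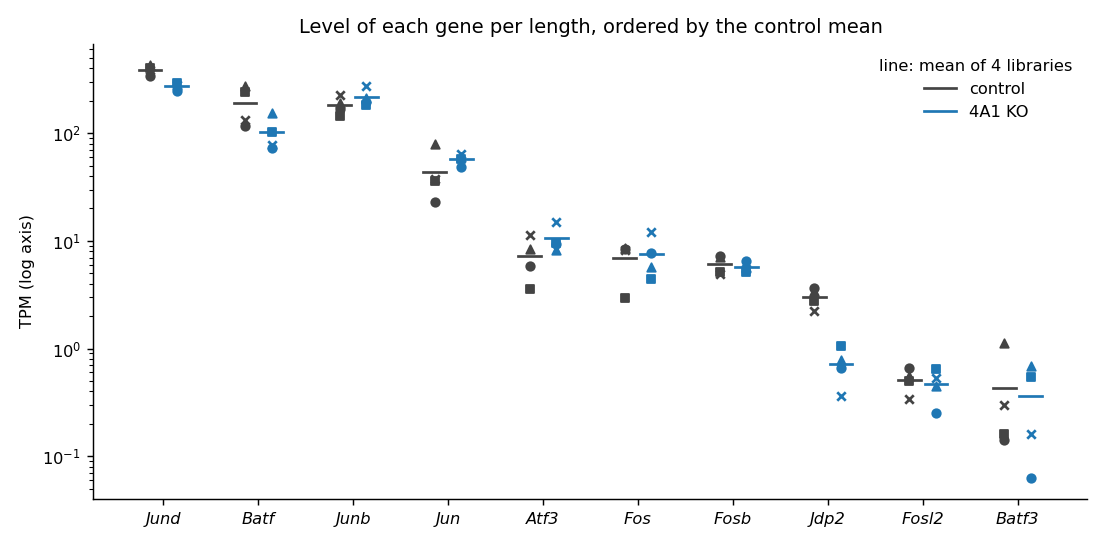
TPM on a log axis for each of the 10 genes in every library, with control in grey and 4A1 KO in blue, marker shapes for the replicate numbers and lines at the mean of 4 libraries. In both genotypes Jund has the highest mean (391 TPM in control and 275 TPM in 4A1 KO cells), and the largest gap between genotypes is that of Jdp2.

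Of the 9 members tested for counts, 3 were called lower and 1 higher, a call meaning an adjusted p below 0.05 in edgeR with a log2 fold change beyond 0.5 in either direction. Among all genes tested, 25.3% were called, 13.7% lower and 11.6% higher. The median log2 fold change of the members was -0.09 and that of all genes 0.01. With an adjusted p under 0.05 at any fold change 53% of all genes passed, and Junb then joined the 4 called members. On log2(TPM + 1) in limma, 3 of the 8 members above 1 TPM were called, against 20.2% of all genes. With all 8 libraries 2 of 9 members were called, against 25.6% of all genes.

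**Figure D2:**
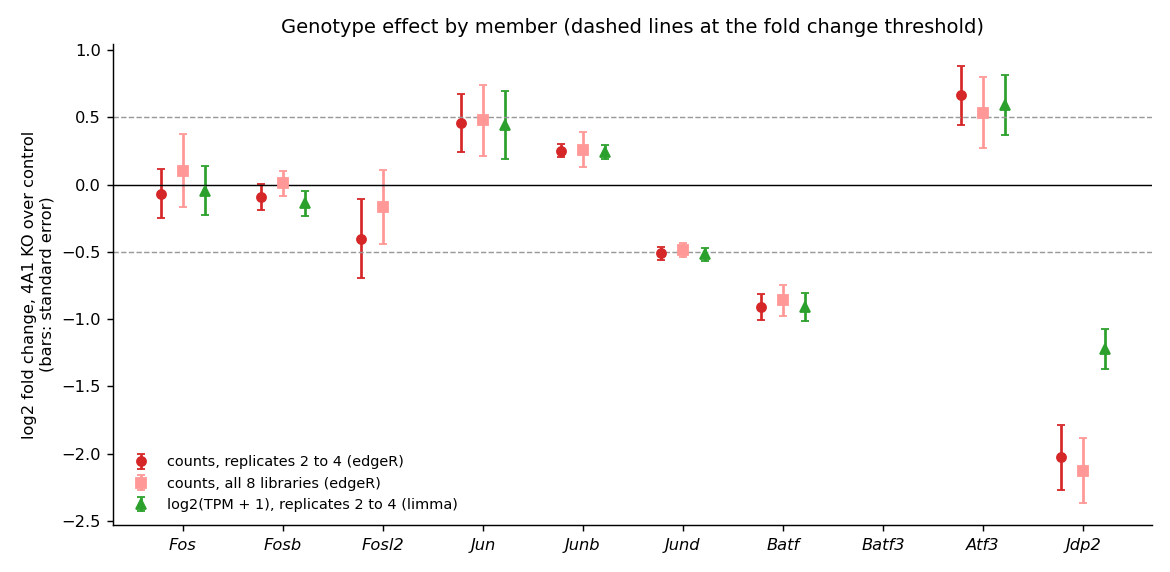
Log2 fold change of each member in 4A1 KO over control cells with its standard error, from counts in replicates 2 to 4, counts in all 8 libraries and log2(TPM + 1) in replicates 2 to 4, with dashed lines at the fold change threshold. Jdp2, Batf and Jund lie at or beyond the lower line (-2.03, -0.91 and -0.51 from counts in replicates 2 to 4), Atf3 lies above the upper line at 0.66, and Batf3 was under the filter on low counts.

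Among the JUN genes, which can form DNA-binding dimers without a FOS partner, Jund fell, and Junb and Jun had higher means in 4A1 KO cells. Jund, which unlike the immediate early genes is also expressed in resting cells, measured 352, 305, 361.5 and 371 CPM in control replicates 1 to 4. In the 4A1 KO replicates it measured 262, 221, 261 and 244 CPM. Every 4A1 KO library lay below every control library, a separation that 36.8% of all genes showed in the 8 libraries in one direction or the other. The log2 fold change was -0.51 (SE 0.05, adjusted p = 5.04e-05, edgeR), only just past the threshold of 0.5, and it lay just inside the threshold with all 8 libraries (-0.49, adjusted p = 3.16e-05), with upper quartile scaling (-0.49) and without replicate 4 (-0.46). The exact permutation test over all 8 libraries gave p = 0.0286, two-sided, the smallest it can give. By batch, the 4A1 KO mean was 0.737 of the control mean in batch A and 0.691 in batch B.

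Junb, an immediate early JUN gene, measured 226, 162, 139 and 178 CPM in control replicates 1 to 4. 4A1 KO replicates 1 to 4 measured 278, 191, 176 and 201 CPM. The 4A1 KO library was the higher one in each of the 4 pairs of the same batch and sex, although the 2 groups overlapped. The log2 fold change was 0.25 (SE 0.05, adjusted p = 0.00271, edgeR), under the fold change threshold. With all 8 libraries it was 0.26 (adjusted p = 0.116), or 0.26 (adjusted p = 0.000399) when blocked by replicate number, and the exact permutation test, which did not use the pairs, gave p = 0.286.

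Jun itself, whose protein is a potent activator in dimers with FOS, ranged widely among control libraries. It measured 66.3, 39.9, 60.7 and 131 CPM in control replicates 1 to 4. The 4A1 KO libraries were closer together, at 115, 84.6, 98.7 and 100.4 CPM. Control replicate 4 was higher than all other libraries, and in the other 3 pairs the 4A1 KO library was the higher one. Jun had a log2 fold change of 0.46 (SE 0.22, adjusted p = 0.108, edgeR) and an exact permutation p of 0.257. Without replicate 4 the log2 fold change was 0.89 (adjusted p = 9.47e-08) and with the replicate number as a block in all 8 libraries it was 0.54 (adjusted p = 0.0338). In batch A the ratio of means was 1.88 without overlap, and in batch B it was 1.04 with overlap. The highest fibroblast marker sum, 59.4 CPM in control replicate 2, was in the library with the lowest Jun, and although feeder cells had been depleted with an H-2Kd antibody before RNA isolation, the part of remaining feeder RNA in these values was not tested.

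The composition of the JUN RNA followed from these values. Summed over Jun, Junb and Jund, TPM was 617 ± 75.8 in control and 548 ± 52.0 in 4A1 KO cells (SD, n = 4), a decrease of 11.1%. The sum was lower in the 4A1 KO library of 4 of 4 pairs, and the exact permutation test, which did not use the pairs, gave p = 0.2. The share of Jund in this sum was 63.5% ± 4.34 in control and 50.3% ± 3.95 in 4A1 KO cells, a difference of -13.3 percentage points, and the ranges of the genotypes did not overlap. The exact permutation p was 0.0286, the smallest possible, and 0.286 after Benjamini-Hochberg adjustment over the 10 shares and ratios tested. Junb took 29.6% ± 4.59 and 39.2% ± 4.17, higher in the 4A1 KO library of 4 of 4 pairs (p = 0.0571, adjusted p = 0.286, exact permutation test). Jun took 6.89% ± 3.03 and 10.5% ± 0.415 (p = 0.143, adjusted p = 0.357, exact permutation test). None of these shares passed the adjusted test, which with 4 libraries per genotype and 10 tests could not give an adjusted p under 0.05 for fewer than 6 of them.

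**Figure D3:**
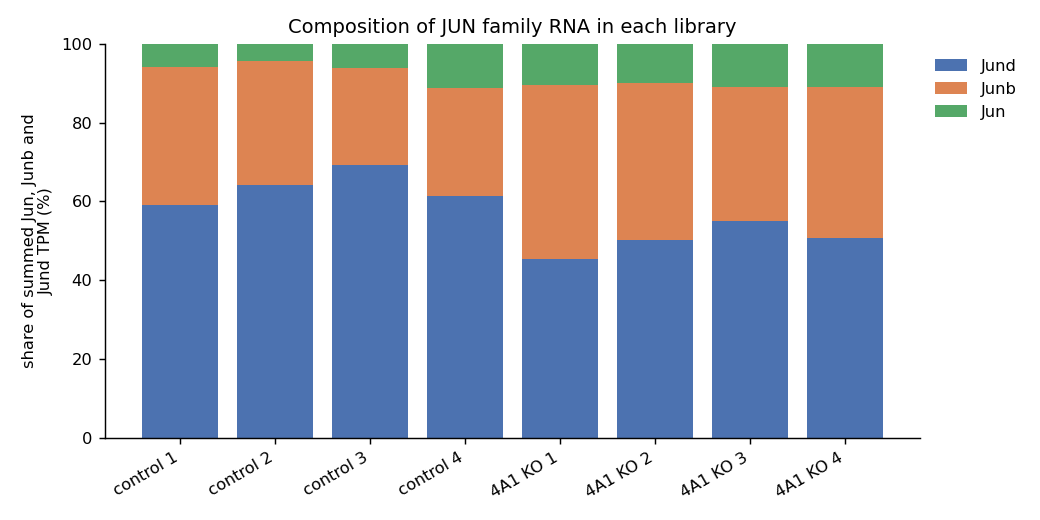
Stacked bars of the percent share of Jund, Junb and Jun in their summed TPM for each of the 8 libraries. The Jund part spans 59.2% to 69.3% in the control libraries and 45.3% to 54.99% in the 4A1 KO libraries.

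FOS genes, which need a JUN partner to bind DNA, are represented by Fos, Fosb and Fosl2, and none of these passed the test. Fos, the best known immediate early gene, measured 9.07, 9.30, 3.23 and 9.05 CPM in control replicates 1 to 4. Its level in the 4A1 KO replicates was 14.0, 8.64, 4.76 and 6.19 CPM. Control replicate 3 was the lowest library, and the 4A1 KO library was higher in both male pairs and lower in both female pairs. The log2 fold change was -0.07 (SE 0.18, adjusted p = 0.776, edgeR), and 0.10 with all 8 libraries.

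Fosb, a second early FOS gene, was among the least variable members, at 9.27, 12.4, 10.4 and 12.8 CPM in control replicates 1 to 4. The 4A1 KO replicates were at 11.7, 12.7, 9.77 and 10.95 CPM. The groups overlapped almost fully, with a log2 fold change of -0.09 (SE 0.10, adjusted p = 0.433, edgeR), and 0.0089 with all 8 libraries. Fosl2, the late and more stable FRA2, was near the detection filter at 1.22, 2.28, 1.52 and 1.68 CPM in control replicates 1 to 4. In the 4A1 KO replicates it was at 1.87, 0.857, 1.78 and 1.52 CPM, from 33 to 72 reads per library. Its log2 fold change of -0.40 (SE 0.29, adjusted p = 0.277, edgeR) rested on replicate 2, and without that replicate it was 0.04. Summed over Fos, Fosb and Fosl2, TPM was 13.6 ± 3.58 in control and 13.7 ± 3.46 in 4A1 KO cells (exact permutation p = 0.971). The shares of Fos, Fosb and Fosl2 in this sum gave exact permutation p-values of 0.714, 0.743 and 0.8286. Fosl1, a FOS family gene outside the members, was not in the sum and rose (log2 fold change 1.12, adjusted p = 9.22e-04, edgeR).

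**Figure D4:**
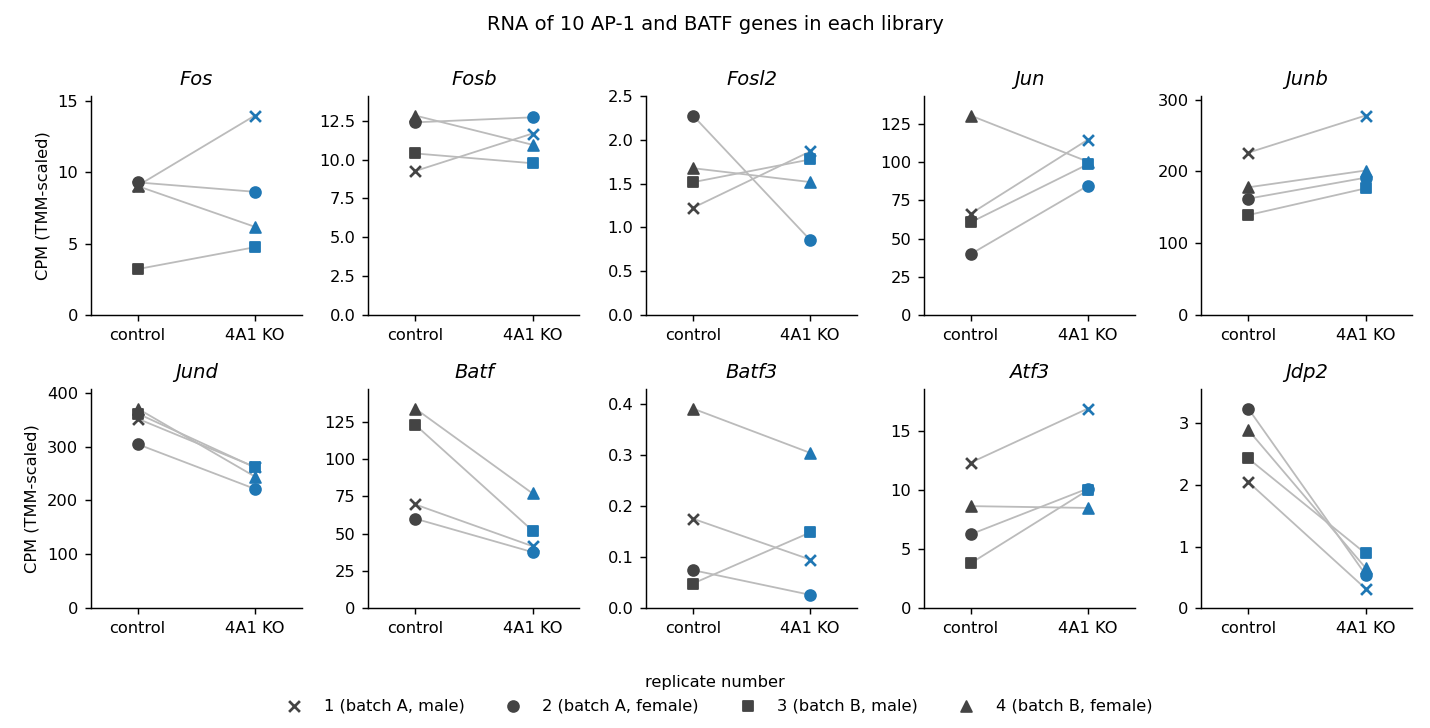
CPM (read counts scaled to TMM library sizes) of each of the 10 genes in control and 4A1 KO libraries, each panel with its own axis from 0, with lines joining libraries of the same replicate number, batch and sex. All 4 lines fall for Jund, Batf and Jdp2 and rise for Junb, whereas those of Fos, Fosb and Fosl2 run in both directions.

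Batf, the partner of IRF4 on composite sites, fell in every pair. It measured 69.6, 60.0, 123 and 134 CPM in control replicates 1 to 4. In the 4A1 KO replicates it measured 41.6, 37.6, 52.0 and 76.998 CPM. The level also differed between batches, the control mean being 1.98 times higher in batch B than in batch A, so that 4A1 KO replicate 4 exceeded both batch A controls although the genotypes did not overlap within either batch. The log2 fold change was -0.91 (SE 0.10, adjusted p = 9.06e-05, edgeR), -0.86 with all 8 libraries (adjusted p = 1.50e-04) and -0.91 on log2(TPM + 1) (adjusted p = 0.00138, limma). By batch, the mean of 4A1 KO cells was 0.611 of control in batch A and 0.502 in batch B. Without the batch and sex terms, which are the replicate block of these libraries, the log2 fold change was -0.93 and the call was lost (adjusted p = 0.0609, edgeR), and the exact permutation test on the 8 libraries, which has no batch term, gave p = 0.0857.

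Batf3, best known in dendritic cells, was at the detection limit. It had 7, 3, 2 and 17 reads in control replicates 1 to 4 and 3, 1, 6 and 13 reads in the 4A1 KO replicates. These counts were under the filter of the edgeR fit, and Batf made up 99.47% to 99.93% of the summed TPM of Batf and Batf3 in each library. The sum was 191 ± 78.1 TPM in control and 102 ± 37.8 TPM in 4A1 KO cells, and the log2 ratio of this sum to that of the JUN genes was -1.78 ± 0.53 in control and -2.49 ± 0.50 in 4A1 KO cells. This ratio was lower in the 4A1 KO library of all 4 pairs, with an exact permutation p of 0.114 (adjusted p = 0.357). T cells and myeloid cells also express BATF genes, and B cells had been purified from the spleens with an isolation kit before culture. T cell markers summed to 29.6 to 45.9 CPM in control and 19.8 to 32.3 CPM in 4A1 KO libraries, lower in the 4A1 KO library of 4 of 4 pairs as Batf was, and nearly all from Thy1 and Lck, with Cd3g at 0 and 5 of the 8 markers under 1 CPM in every library. Myeloid markers summed to 8.79 to 14.9 CPM in control and 14.3 to 16.5 CPM in 4A1 KO libraries with S100a8 and S100a9 at 0. Their sum was higher in the 4A1 KO library of 4 of 4 pairs, opposite to Batf. The part of T cells and myeloid cells in the Batf values was not tested.

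Jdp2 and Atf3, which can repress AP-1 sites, differed in opposite directions. Jdp2 had the largest fold change of the members. It measured 2.05, 3.24, 2.43 and 2.89 CPM in control replicates 1 to 4, from 82, 131, 101 and 126 reads. In the 4A1 KO replicates it measured 0.317, 0.545, 0.888 and 0.654 CPM, from 10, 21, 36 and 28 reads. The highest 4A1 KO library was well below the lowest control library, in both batches and both sexes. The log2 fold change was -2.03 (SE 0.24, adjusted p = 1.57e-04, edgeR), and -2.13 (SE 0.24) with all 8 libraries. On log2(TPM + 1) it was -1.22 (adjusted p = 0.00163, limma), a scale that understates the change of a gene near 1 TPM, and with 0.1 in place of 1 it was -1.87. The exact permutation p over 8 libraries was 0.0286, the smallest possible. Jdp2 was called under all 15 count and all 7 TPM alternatives.

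Atf3, a stress-induced gene of the ATF branch, measured 12.3, 6.26, 3.80 and 8.66 CPM in control replicates 1 to 4. In the 4A1 KO replicates it measured 16.9, 10.2, 10.0 and 8.501 CPM. The 4A1 KO library was higher in 3 of 4 pairs and about equal in the pair of replicate 4, and the groups overlapped. Its log2 fold change was 0.66 (SE 0.22, adjusted p = 0.0308, edgeR). The call was lost without the replicate block (0.61, adjusted p = 0.108), with all 8 libraries (0.54, adjusted p = 0.113, though not when these were blocked by replicate number: 0.60, adjusted p = 0.0175), without replicate 2 (0.64, adjusted p = 0.143), without replicate 3 (0.33, adjusted p = 0.146) and in limma on TPM (0.59, adjusted p = 0.0669), and without replicate 4 the value was 1.03 (adjusted p = 5.95e-05). The ratio of means was 1.46 in batch A and 1.49 in batch B, with overlap in each. Replicate 1, left out for reduced viability, had the highest Atf3 of each genotype, as it had the highest Junb.

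The difference between genotypes was also compared between sexes and between batches in the 8 libraries. No member passed the interaction test after adjustment for either, and 0% of all genes passed for sex and 0.00704% for batch. At an unadjusted p under 0.05, 1 of 9 members differed by sex and 0 by batch, against 2.85% and 4.29% of all genes. That member was Fosl2, with a log2 fold change higher by 1.15 in males than in females (SE 0.43, adjusted p = 1, edgeR). For the called members the differences between males and females were 0.09 for Jund, -0.24 for Batf, 0.53 for Atf3 and 0.50 for Jdp2 on the log2 scale, with standard errors of 0.11, 0.23, 0.54 and 0.50. The differences between batch B and batch A were -0.10 for Jund, -0.29 for Batf, -0.02 for Atf3 and 0.81 for Jdp2, with standard errors of 0.11, 0.23, 0.57 and 0.45. For Jdp2 the log2 ratios of the pairs were -2.69 and -2.57 in batch A and -1.45 and -2.15 in batch B, and this difference had an adjusted p of 0.999 (edgeR).

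Several members lie close together in the genome, here in GRCm39 coordinates. On chromosome 12, Fos (85520658 to 85524047), Jdp2 (85645015 to 85690570) and Batf (85733423 to 85755861) follow one another on the plus strand, 121 kb and 42.85 kb apart. In that order their log2 fold changes were -0.07, -2.03 and -0.91. On chromosome 1, Batf3 (190830044 to 190841142, plus strand) lies 61.35 kb from Atf3 (190902493 to 190950241, minus strand). Junb (85701113 to 85705359, minus strand) and Jund (71151599 to 71153265, plus strand) are both on chromosome 8, and Jun (94937271 to 94940459, minus strand), Fosb (19036621 to 19043976, minus strand) and Fosl2 (32292707 to 32315186, plus strand) are on chromosomes 4, 7 and 5. Of the 14 tested genes nearest to a member on either side, other than members, 3 were called, against 25.3% of all genes. Rnaseh2a, which encodes a subunit of ribonuclease H2 and lies 4.705 kb from Junb, fell by 0.62 on the log2 scale (SE 0.08, adjusted p = 0.000275, edgeR). Erg28, 106.4 kb from Batf, had a log2 fold change of -0.70 (SE 0.07, adjusted p = 5.43e-05, edgeR), and Nsl1, a kinetochore gene 2.06 kb from Batf3, of -1.20 (SE 0.11, adjusted p = 4.22e-05, edgeR). No member shares exon or intron sequence with another gene on its own strand, and counts were strand-specific. Prdx2 overlaps Junb on the opposite strand.

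EIF4A1 is an RNA helicase of the translation initiation complex that unwinds the 5′ untranslated region (5′ UTR), so the members' 5′ UTRs in the canonical transcripts are given as a description. Against 11210 tested protein-coding genes with a median 5′ UTR of 233 bases and 65.06% GC, Jund had a short and GC-rich one (108 bases, 82.4% GC, percentile 98.1 for GC). Those of Batf3 (134 bases, 79.9% GC) and Jdp2 (326 bases, 79.8% GC) were also GC-rich. The 5′ UTRs of Fosl2 (1341 bases), Jun (951 bases) and Fosb (620 bases) were long, at length percentiles 98.8, 96.3 and 89.1. Batf (262 bases, 60.3% GC), Atf3 (252 bases, 67.1% GC), Junb (289 bases, 70.2% GC) and Fos (156 bases, 63.5% GC) were nearer the median. Among the 4 called members, then, Jund and Jdp2 had GC-rich 5′ UTRs and Batf and Atf3 did not. The 3′ UTRs held 4 copies of ATTTA, a motif of unstable RNA, in Fos and Jun, 2 in Junb, 3 in Atf3, 5 in Jdp2, 8 in Fosl2, 1 each in Fosb and Jund and 0 in Batf and Batf3. Per kilobase, Fos (4.91) and Junb (4.12) had the most, against a median of 1.33 over the tested genes.

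Other genes of the pathway were described by the same calls. Of the 19 tested genes of 24 other basic leucine zipper factors, 8 rose and 0 fell, with a median log2 fold change of 0.45, against 11.6% of all genes called higher and a median of 0.01. They included Mafg, a small MAF protein, from 47.6 ± 8.25 to 99.6 ± 17.4 CPM (SD, n = 3; log2 fold change 1.07, adjusted p = 1.45e-05, edgeR). Atf5 rose by 0.87 and Atf7 by 0.86 on the log2 scale (adjusted p = 1.53e-05 and 1.93e-05, edgeR). Fosl1, the FOS family gene that encodes FRA1 and was singled out after its values were seen, rose from 2.34 ± 0.425 to 5.27 ± 2.096 CPM (log2 fold change 1.12, SE 0.18, adjusted p = 9.22e-04, edgeR).

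Of the 30 tested genes of 31 on the MAP kinase route to AP-1, 3 rose and 6 fell, with a median log2 fold change of -0.00, where 25.3% of all genes were called. Those that rose were the kinases Braf (0.60), Map3k5 (0.54) and Map4k4 (0.55). The 3 with the smallest adjusted p among those that fell were Map2k6 (-0.98) and Map2k3 (-0.56), which activate p38, and the ribosomal S6 kinase Rps6ka1 (-0.54). Of 10 genes of SRF, ternary complex and MEF2 factors, which drive immediate early promoters, 1 rose (Mef2d, 0.55) and 1 fell (Mef2b, -0.79). Srf itself had a log2 fold change of 0.11 (adjusted p = 0.0887, edgeR).

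Among 10 DNA-binding partners, 1 rose and 0 fell, against 11.6% of all genes called higher. Runx3 rose by 0.68 on the log2 scale (adjusted p = 1.65e-05, edgeR). Irf4 and Irf8, with which BATF binds DNA, had log2 fold changes of -0.15 (adjusted p = 0.101) and -0.12 (adjusted p = 0.0897, edgeR), so of Batf, Irf4 and Irf8 only Batf passed the test. Of 14 genes of JUN and FOS protein turnover and cofactors, 4 rose and 0 fell, with a median log2 fold change of 0.26, against 11.6% of all genes called higher and a median of 0.01. They included Det1 (0.83), which works with the ubiquitin ligase COP1, and the acetyltransferases Crebbp (0.77) and Ep300 (0.63).

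Of 22 genes known as AP-1 or BATF targets in various cells, 16 were tested, and 5 rose and 3 fell, with a median log2 fold change of 0.29, against 11.6% of all genes called higher, 13.7% called lower and a median of 0.01. Il2ra, the high-affinity IL2 receptor chain, rose from 48.1 ± 13.9 to 110 ± 14.9 CPM (log2 fold change 1.22, adjusted p = 2.56e-05, edgeR). Odc1, of polyamine synthesis, rose by 0.63 and Bcl3 by 0.61. Plau, a urokinase also made by fibroblasts, had a log2 fold change of -1.33 (adjusted p = 0.0406), and Prdm1, the plasma cell factor, of -0.64 (adjusted p = 0.00114, edgeR), or -0.45 and not called with all 8 libraries. The chemokine gene Ccl4, named after its values were seen because it lies farthest out in the plot of the lists, was at 0.0573 ± 0.0624 CPM in control and 0.775 ± 0.250 CPM in 4A1 KO libraries, from 139 reads over all 8. The targets therefore moved in both directions.

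**Figure D5:**
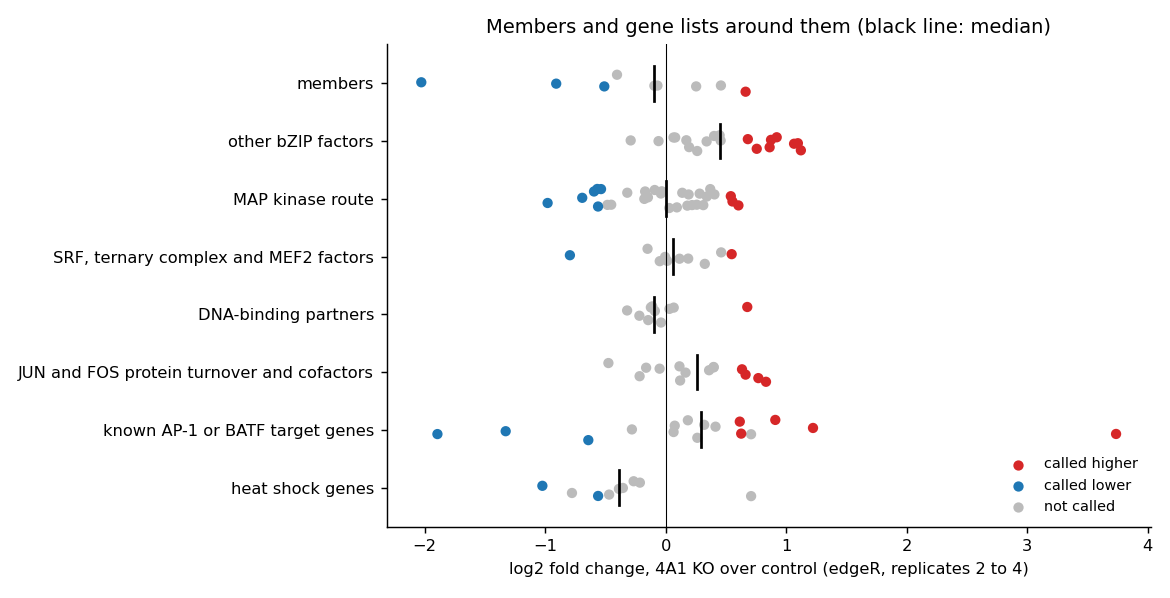
Log2 fold change of every tested gene of the members and of 7 lists around them, with genes called higher in red, called lower in blue, others in grey and a black line at each median. The other basic leucine zipper factors have 8 genes called higher and 0 lower, whereas the members have 1 higher and 3 lower.

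Of 9 heat shock genes, which can be induced by handling as immediate early genes can, 0 rose and 2 fell: Hspa8 (-1.02, adjusted p = 1.03e-05) and Hsph1 (-0.56, adjusted p = 3.22e-05, edgeR), against 13.7% of all genes called lower. Their summed level was 5376 to 6301 CPM in control and 3353 to 4132 CPM in 4A1 KO libraries. The largest part of this sum was Hspa8, at 1951 CPM on average. Hspa1a and Hspa1b, each under 1 CPM in every library, were not called and had log2 fold changes of 0.71 and -0.78. The sum therefore says little about these low genes, and the part of handling in the values of Fos, Jun and Atf3 was not tested. Among the fibroblast markers Fn1 rose by 0.86 and Col3a1 and Cald1 had log2 fold changes of -1.57 and -0.91, that of Col3a1 being -0.91 and not called with all 8 libraries, with Col1a1, the most abundant, at 10.8 CPM on average. Of the 4 tested myeloid markers Adgre1 rose by 0.62 (0.47 and not called with all 8 libraries), against 11.6% of all genes called higher. Of the 3 tested T cell markers 0 were called, against 25.3% of all genes. Thy1 and Lck had log2 fold changes of -0.50 and -0.40 (adjusted p = 0.00521 and 0.00518, edgeR) within the fold change threshold. Of 8 B cell markers 3 fell, Cd79b (-0.89), Cd22 (-0.76) and Cd79a (-0.67), against 13.7% of all genes called lower.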

How the data were processed

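RNA-seq of 8 libraries, 4 per genotype, was used. The authors trimmed reads with Trim Galore 0.6.6, aligned them to GRCm39 with HISAT2 2.1.0 and deposited raw counts per gene from Seqmonk (strand-specific, merged isoforms). The deposited TPM were made by the authors with StringTie 2.1.1. How reads with several map positions were counted is not given in the sources used here.

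Counts were fitted with edgeR 4.0.16 in R 4.3.3 (filterByExpr, TMM, quasi-likelihood with batch, sex and genotype, two-sided, Benjamini-Hochberg over all 14218 genes). CPM are TMM-scaled. TPM were fitted with limma 3.58.1 as log2(TPM + 1) for genes averaging 1 TPM or more. DESeq2 1.42.0 was an alternative. Single values were compared by exact permutation over 70 assignments of 8 libraries (SciPy 1.17.1, two-sided). With 3 libraries per genotype such a test cannot go below 0.1. Both fits were tested on simulated data and recovered 200 of 200 genes changed 2-fold in 3 libraries per genotype, with 9 false calls in edgeR (14065 genes) and 6 in limma (11798 genes). The changed genes were drawn only from the more abundant ones, and no batch or sex effect was simulated. Levels as low as those of Jdp2 and Fosl2, and the batch difference of Batf, were therefore not covered.

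In the 6 libraries, batch and sex together equal the replicate number as a block. Same-numbered libraries share batch and sex per the labels, and their deviations from the genotype means correlated across genes at 0.49, 0.40 and 0.33. Replicates are individual mice per the methods of the study.

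The members and gene lists were chosen with earlier results of these data known. The text names the 10 members, Eif4a1, up to 3 called genes per list and direction with the smallest adjusted p, and called neighbours of members, apart from items that are not reported here. Genes outside this rule (Fosl1, Srf, Irf4, Irf8, Ccl4 and marker genes) were named after their values were seen. Gene positions are from GENCODE M39, matched to 52647 of 53242 identifiers.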

Additional observations from a re-analysis of the deposited data

Results flagged for a closer look

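Among 40 groups of 4 libraries (10 genes, 2 genotypes, CPM and TPM), 3 had a library set apart from the rest, where chance gives about 2. Fos in control replicate 3 was the lowest library at 3.23 CPM against 9.05 to 9.30 CPM in the others, the gap being 0.958 of the whole range in CPM and 0.931 in TPM. Batf3 in control replicate 4 was the highest at 1.14 TPM, from 17 reads, with a gap of 0.843 of the range.

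In 3 members every pair of one sex or batch moved opposite to every pair of the other. With only 4 pairs such a split arises easily by chance, and its share among all genes is not given here. Fos was higher in 4A1 KO cells in both male pairs and lower in both female pairs, a difference of 0.95 on the log2 scale (SE 0.47, adjusted p = 1, edgeR interaction term). Fosl2 did the same with a difference of 1.15 (SE 0.43, adjusted p = 1, edgeR). For Fosb the pairs rose in batch A and fell in batch B, a difference of -0.34 (SE 0.16, adjusted p = 0.999, edgeR). None of the 3 passed the adjusted test.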

How the results depend on the processing

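The 4 called members became 2 under a test against the fold change threshold itself (glmTreat, which called 1627 of all genes against 3596). They also became 2 without the replicate block (3000 of 14218 genes called), with all 8 libraries (3640 of 14211) and with DESeq2 shrinkage on all 8 (3241 of 21924). The last was added after the data were seen. Jund and Jdp2 remained without the block, Batf and Jdp2 in the others. With upper quartile scaling (3613 of 14218), without replicate 2 (3083 of 14352) and without replicate 3 (3159 of 14347), 3 members were called. With the replicate number as a block in all 8 libraries (3678 of 14211 genes called) 4 members were called, Jun (0.54) taking the place of Jund (-0.49). The cause was not tested. Jdp2 kept its call under all 15 count alternatives (-2.34 to -1.53). Batf lost it without the replicate block (adjusted p = 0.0609 for counts, 0.094 for TPM, its range over alternatives being -1.02 to -0.73). Jund lost it in 6 of 15 with values of -0.54 to -0.46 over all of them, and Atf3 in 6 of 15, with values of 0.33 to 1.03 and adjusted p of 5.95e-05 to 0.432. Jun was called without replicate 4 (0.89; TPM 0.86) and ranged from 0.15 to 0.89.

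The sign changed for members that were never called. Fos was at 0.10 with all 8 libraries, 0.12 with their replicate block and 0.085 in DESeq2, and from -0.32 to 0.19 when 1 replicate was left out. Its TPM value was 0.10 with all 8 libraries and -0.30 to 0.18 without 1 replicate. Fosb was at 0.0089, 0.0085 and 0.010 in these settings of all 8 libraries, and Fosl2 ranged from -0.73 to 0.040 without 1 replicate. The difference in the Fosl2 share was 0.398 percentage points without replicate 2, and those of the Batf and Batf3 shares ranged from -0.157 to 0.00863 and from -0.00863 to 0.157 without 1 replicate, the sign changing without replicate 3. Depth limits Batf3 (1 to 17 reads per library), Fosl2 and Jdp2 in 4A1 KO cells, and 2 libraries per genotype in each batch and in each sex limit the interaction tests.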
